A study of Mus musculus with 8 samples.

Results

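IPO13 knockout (IPO13-/-) and wild-type (IPO13+/+) mouse embryonic stem cells (mESCs) were compared after oxidative stress. The members are the 4 treated libraries of the 8 in the series, 2 from IPO13+/+ cells and 2 from IPO13-/- cells, chosen by their labels. Both genotypes had received 125 uM H2O2 for 1 h and had then recovered for 2 h in fresh medium. The other 4 libraries, 2 per genotype, came from untreated cells and are used only where the treated difference is set beside the untreated one. All lines were of the 129 x C57BL/6 background, derived from blastocysts and grown without feeder cells on gelatin in medium with serum and LIF, the cytokine that keeps mESCs pluripotent. Each genotype is 1 line, so genotype cannot be told apart from any other difference between the lines, and the sources used here do not state how many clones were made. Nothing in the labels says whether replicates were separate cultures, so p-values measure the spread between libraries, which may be technical.

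Importin 13 is a nuclear transport receptor of the importin beta family that carries some proteins into the nucleus and others out of it. Hydrogen peroxide damages DNA, proteins and lipids. Cells answer it with several transcriptional programmes, among them the p53 targets of the DNA damage response, the NRF2 targets that restore redox balance, the heat shock chaperones, and the immediate early genes of the FOS and JUN family. A level after stress depends both on where a gene started and on how far it moved, so the levels reached are described here rather than the change within a genotype.

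Counts on genes came to 68052299 and 69366651 in the treated IPO13+/+ libraries and to 64372255 and 61683605 in the treated IPO13-/- libraries. At these depths 3 counts, taken as the smallest level told from 0, correspond to 0.0432 to 0.0486 CPM (the count of a gene scaled to the total of its library), which covers counting error only. The 2 treated IPO13+/+ libraries differed from each other less than any other replicate pair, with a mean chi-square of 2.26 per gene against 6.59 for the treated IPO13-/- pair and 15 for untreated IPO13+/+ cells. Defining pluripotency genes were abundant in every treated library. Pou5f1, which encodes OCT4, lay at 1468 and 1455 CPM in IPO13+/+ cells and at 1397 and 1505 in IPO13-/- cells. Markers of fibroblasts summed to 955 and 932 CPM against 993 and 932, of which Fn1 alone gave a mean of 822 against 701, and Lum, Postn and Col3a1 stayed below the level of 3 counts in both genotypes.

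The order of the genotypes for Cyp1a1 and Cyp1b1, targets of the aryl hydrocarbon receptor (AHR), differed between untreated and treated cells, and the promoters of these genes and of Ahrr are shown first. AHR is a ligand-activated transcription factor that binds DNA with its partner ARNT at sites with the core GCGTG. Cyp1a1 and Cyp1b1 are cytochrome P450 enzymes of xenobiotic metabolism that it induces, as it does Ahrr, the repressor that competes with it. The promoters of these 3 genes, 250 bases before to 50 bases after the RefSeq start on GRCm38.p6, follow in lower case, 5′ to 3′ on the strand of the gene, with each GCGTG or its reverse complement CACGC in capitals. The windows are chr9:57697363-57697662 on the plus strand for Cyp1a1, chr17:79715012-79715311 on the minus strand for Cyp1b1 and chr13:74292282-74292581 on the minus strand for Ahrr.
Cyp1a1: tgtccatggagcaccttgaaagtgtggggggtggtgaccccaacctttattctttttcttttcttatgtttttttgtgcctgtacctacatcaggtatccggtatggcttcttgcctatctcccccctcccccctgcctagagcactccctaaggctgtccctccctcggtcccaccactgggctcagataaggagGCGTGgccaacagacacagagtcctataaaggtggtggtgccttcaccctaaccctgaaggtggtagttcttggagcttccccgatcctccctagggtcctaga
Cyp1b1: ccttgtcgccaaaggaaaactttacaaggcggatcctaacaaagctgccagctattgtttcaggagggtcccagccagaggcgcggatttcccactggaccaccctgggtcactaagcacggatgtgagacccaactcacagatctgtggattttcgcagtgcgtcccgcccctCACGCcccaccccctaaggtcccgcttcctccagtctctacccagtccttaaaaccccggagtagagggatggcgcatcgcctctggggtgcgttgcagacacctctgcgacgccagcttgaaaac
Ahrr: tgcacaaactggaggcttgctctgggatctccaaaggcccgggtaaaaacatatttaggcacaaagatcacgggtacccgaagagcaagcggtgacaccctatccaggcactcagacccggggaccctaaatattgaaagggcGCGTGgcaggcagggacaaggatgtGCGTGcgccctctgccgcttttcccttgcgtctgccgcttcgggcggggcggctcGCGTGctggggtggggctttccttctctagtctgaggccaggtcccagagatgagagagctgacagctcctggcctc
The core occurred 1 time in the Cyp1a1 window, 1 time in the Cyp1b1 window, there as the reverse complement, and 3 times in the Ahrr window. It is a short and common motif, held on either strand by 45.0% of the 13807 tested genes with a promoter in the table, so a match is a description and not a binding site.

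Cyp1a1 (chromosome 9, 57687928 to 57703824, plus strand, GENCODE M21 on GRCm38) reached 14.4 and 15.05 CPM in treated IPO13+/+ cells and 26.98 and 25.67 in treated IPO13-/- cells. Both IPO13-/- libraries lay above both IPO13+/+ libraries (log2 fold change 0.84, SE 0.07, FDR = 4.7e-11, edgeR quasi-likelihood test). In untreated cells the order was the opposite, with means of 15.9 CPM for IPO13+/+ and 1.89 CPM for IPO13-/- (log2 fold change -3.08). The genotype difference thus differed between treated and untreated cells by 3.92 on the log2 scale (FDR = 9.5e-19), the furthest of the genes named here. Cyp1b1 showed the same pattern at lower levels. It lay at 2.97 and 2.91 CPM in treated IPO13+/+ and at 5.10 and 4.95 in treated IPO13-/- cells (log2 fold change 0.77, SE 0.10, FDR = 2.8e-07), against 2.63 and 1.09 CPM in untreated cells (log2 fold change -1.28). Here too the treated groups did not overlap, and the difference between the contrasts was 2.05 (FDR = 1e-08).

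Ahrr was level in untreated cells, at means of 1.45 CPM in IPO13+/+ and 1.47 in IPO13-/- cells. After H2O2 it lay at 1.29 and 1.06 CPM in IPO13+/+ and at 3.77 and 3.09 in IPO13-/- cells (log2 fold change 1.55, SE 0.14, FDR = 5.7e-10), both IPO13-/- libraries being the higher. The receptor itself did not pass the test. Ahr had 7.53 and 7.81 CPM in treated IPO13+/+ and 8.37 and 7.08 in treated IPO13-/- cells, so the groups overlapped (log2 fold change 0.01, SE 0.09). Not every target reached a higher level in treated IPO13-/- cells. Tiparp, which encodes a polymerase that restrains AHR, was at 100.4 and 100.3 against 100.7 and 98.9 CPM after stress (log2 fold change -0.01, SE 0.05). Without treatment Tiparp was lower in IPO13-/- cells (-0.40), so its difference also became more positive, by 0.39 (FDR = 4.4e-04). Nqo1, a quinone reductase shared with the NRF2 programme, stayed lower in IPO13-/- cells, at 82.8 and 86.6 against 57.1 and 59.96 CPM (log2 fold change -0.53), as did the aldehyde dehydrogenase Aldh3a1 (log2 fold change -1.11). Of the 13 listed AHR genes, 1 was called higher and 1 lower at an FDR below 0.05 and at least 2-fold, and 5 were higher and 3 lower by FDR alone. Over all 19424 genes tested, 4.56% were called by the first rule (2.58% higher, 1.98% lower) and 36.6% passed the FDR alone (19.1% higher, 17.5% lower). The same shares apply to the list counts below. They include genes with few reads. At a mean of at least 1 CPM outside chromosome 2, 22.5% were higher by FDR alone. On chromosome 11, which held the most genes at this level (968), 219 were higher and 256 lower. The shares over all genes are therefore low ones to set beside lists of expressed genes.

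**Figure D1:**
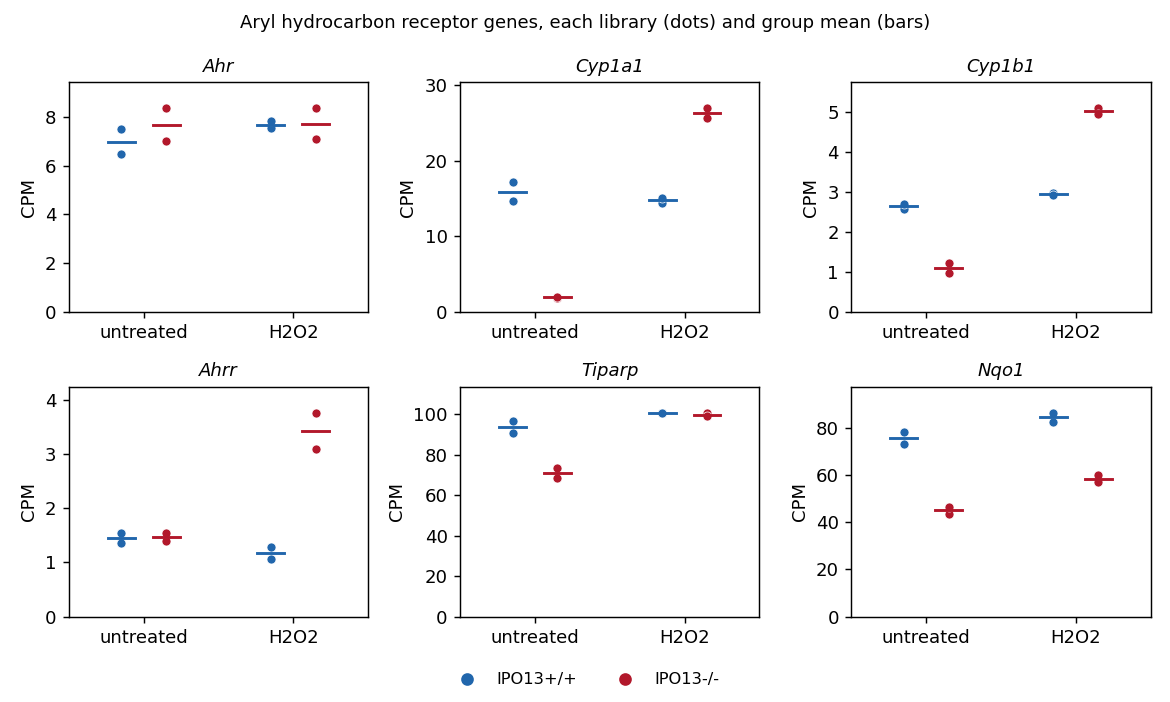
CPM (linear axes from 0) of 6 genes of the aryl hydrocarbon receptor list in untreated and H2O2-treated cells, with a dot for each library, a bar for each mean of 2 libraries, IPO13+/+ in blue and IPO13-/- in red. Cyp1a1 and Cyp1b1 lay lower in IPO13-/- cells without treatment (means of 1.89 and 1.09 CPM) and higher after it (26.3 and 5.02 CPM), while Ahr did not separate the genotypes.

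Ipo13 itself (chromosome 4, 117894486 to 117914999, minus strand) had 4928 and 4791 counts in treated IPO13+/+ libraries and 1610 and 1604 in treated IPO13-/- libraries. In CPM these are 72.4 and 69.3 against 24.9 and 25.9, so that both knockout libraries were lower, by 1.48 on the log2 scale (SE 0.05, FDR = 6.9e-19). Reads on the gene remained in IPO13-/- cells, and gene counts do not show which part of the transcript they cover. The other importins and exportins were close to level. Of 25 listed karyopherins, Ipo13 was the only one called. By FDR alone 2 were higher and 7 lower, against 19.1% and 17.5% of all genes, with a list median of -0.06. Of the 25, 24 had a mean of at least 1 CPM, unlike many of the genes behind these shares.

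Across the transcriptome, 501 genes were called higher and 385 lower in treated IPO13-/- than in treated IPO13+/+ cells. Only 177 of the former (1.45% of the genes at this level) and 154 of the latter (1.26%) had a mean of at least 1 CPM, so most called genes were near the lower end of the range. In the plot of levels, genes above about that level followed the diagonal (Pearson r = 0.984 across 12228 genes, which are not independent replicates). Without treatment 556 genes (2.86%) were called higher and 358 (1.84%) lower, 4.71% in all, and 18.7% and 19.4% passed the FDR alone. Of the genes called after treatment, 342 were also called higher and 204 also called lower in untreated IPO13-/- cells, and none was called in opposite directions. The treated and untreated contrasts share no library. The shared calls were 61.6% of the 886 treated calls and 59.7% of the 914 untreated calls. Of the 340 genes called in treated cells alone, 317 had the same sign in untreated cells, and in 17 the difference between the contrasts passed the test. A call in treated cells alone therefore did not by itself show a difference that depends on treatment.

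**Figure D2:**
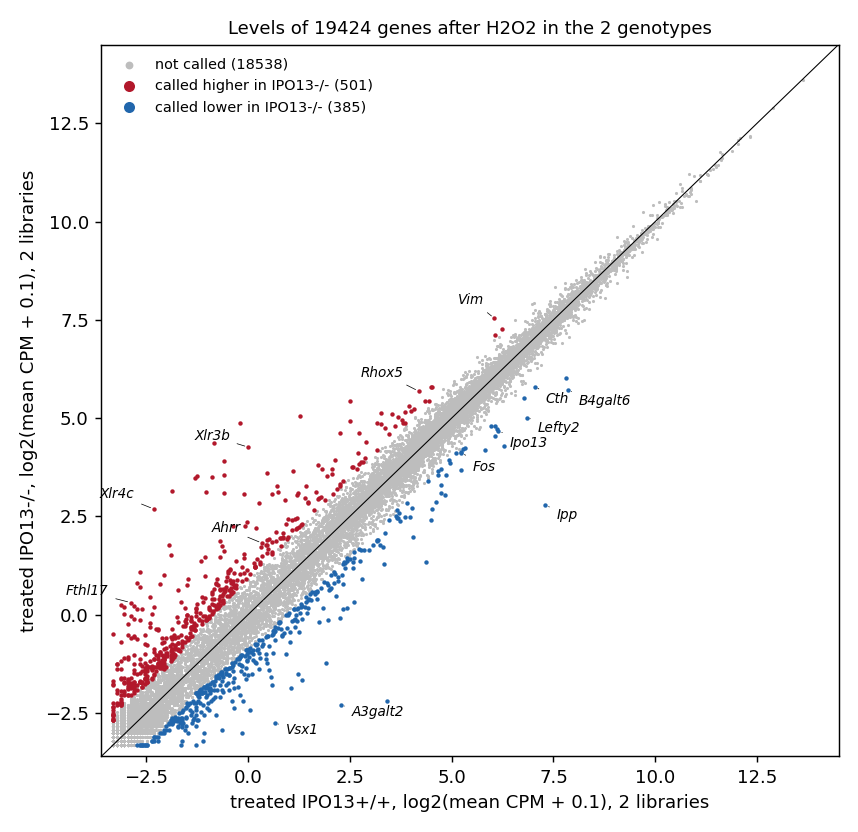
Mean level of each of 19424 genes in treated IPO13+/+ (x axis) and treated IPO13-/- cells (y axis), both as log2(mean CPM + 0.1) over 2 libraries, with called genes in colour and the line of equal levels. The 501 genes called higher and 385 called lower lie mostly at low levels, and a few abundant genes such as Vim, Ipp and B4galt6 stand off the line.

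The largest rises were mostly X-linked genes of families known from testis and placenta, Xlr, Magea and Pramel. They were taken among called genes at 1 CPM or more in both libraries of the higher group. Genes whose groups overlapped were left out, so the separation was set by the choice. Xlr4c had 3 and 11 counts in treated IPO13+/+ libraries and 399 and 403 in treated IPO13-/- libraries, or 0.0441 and 0.159 CPM against 6.16 and 6.52 (log2 fold change 5.93, SE 0.20). Xlr3b, the most abundant of the 10 largest rises, went from 0.867 and 0.940 CPM to 18.97 and 19.19 (log2 fold change 4.40, SE 0.10). The other 8 were Xlr4b, Xlr5b, Magea8, Fthl17, Xlr5a, Magea5, Xlr4a and Pramel3, with log2 fold changes between 4.56 and 5.62. Fthl17, a ferritin heavy chain relative expressed in germ cells, was the only gene with at least 1 CPM in both libraries of 1 genotype and no more than 3 counts in each of the other. It had 3 and 2 counts against 75 and 69, a ratio of 31.4 with a 95% counting interval of 13.1 to 98.2. Counts of so few reads leave the size of such ratios wide, and the interval for Xlr4c ran from 37.0 to 115.

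The families were singled out after these values were seen. All 10 tested Xlr genes were called higher and all 7 tested Magea genes, against 2.58% of all genes. Members without a count in any library were not tested, and members near 0 in IPO13+/+ cells entered through the higher group, so these counts are a description. Of 27 tested Rhox genes, homeobox genes of the X-linked reproductive cluster, 8 were called higher and none lower. In the other families counted the calls were fewer, with 1 of 5 Pramel, 1 of 6 Zscan4 and 2 of 6 Nlrp4 genes called higher, and 1 of 5 Obox genes called lower. Rhox5 was the most abundant of those named, at 18.3 and 18.1 CPM in treated IPO13+/+ and 49.7 and 52.9 in treated IPO13-/- cells (log2 fold change 1.49, SE 0.05). Reads of near-identical copies could have been assigned to either member. The longest transcripts of Xlr5a and Xlr5b share 99.3% of their bases, those of Xlr3a and Xlr3b 98.0% and those of Magea5 and Magea8 96.2%, so values of single members are uncertain. For the 10 named genes the difference between the treated and untreated contrasts did not pass the test (FDR of 0.359 or more).

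Other germline genes were higher as well. In mESCs many of these genes carry DNA methylation at promoters rich in the CG pair. Of 24 tested genes of a list of such germline genes, 9 were called higher and none lower, with a list median of 0.57 on the log2 scale against 0.00 over all genes tested. By FDR alone 17 were higher, 3 were lower and 4 did not pass. Slc25a31, a germ cell ADP/ATP carrier (chromosome 3, 40708855 to 40726096, plus strand), lay at 1.56 CPM in both treated IPO13+/+ libraries and at 8.59 and 8.63 in IPO13-/- libraries (log2 fold change 2.46, SE 0.10). Asz1 and Mov10l1, which act in the piRNA pathway that guards the germline against transposons, had log2 fold changes of 2.47 and 1.90. Dazl, an RNA-binding regulator of germ cell translation, was at 13.6 and 14.01 against 28.2 and 30.3 CPM (1.08). Ddx4, the germ cell helicase VASA, was higher by less than the fold limit (0.86). In each of these the groups did not overlap.

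The promoters of Slc25a31 and of Xlr4a are set side by side to show how far the CG content of promoters of genes that rose can differ. CG pairs are in capitals, the windows being chr3:40708621-40708920 on the plus strand and chrX:73082458-73082757 on the minus strand.
Slc25a31: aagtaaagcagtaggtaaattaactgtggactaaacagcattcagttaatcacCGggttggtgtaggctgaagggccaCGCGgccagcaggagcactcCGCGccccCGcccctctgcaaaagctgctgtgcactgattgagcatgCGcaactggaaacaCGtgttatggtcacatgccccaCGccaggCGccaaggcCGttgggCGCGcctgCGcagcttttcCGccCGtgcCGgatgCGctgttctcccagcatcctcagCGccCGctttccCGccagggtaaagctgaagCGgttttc
Xlr4a: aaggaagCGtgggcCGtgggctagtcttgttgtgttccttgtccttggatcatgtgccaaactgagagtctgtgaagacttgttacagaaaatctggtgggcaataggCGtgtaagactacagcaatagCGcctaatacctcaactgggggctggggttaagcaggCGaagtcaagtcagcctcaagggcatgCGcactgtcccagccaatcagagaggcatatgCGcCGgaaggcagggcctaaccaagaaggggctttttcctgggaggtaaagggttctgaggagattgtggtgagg
The first held 22 CG pairs and the second 8. The 23 listed germline genes with a promoter in the RefSeq table had a median of 20 CG pairs per window, against 17 for all 13807 tested genes with one, 9 for the 359 genes called higher and 7 for the 247 called lower. Among all tested genes at a mean of at least 1 CPM the median was 21. Of 16 listed genes of DNA methylation none was called, and by FDR alone 4 were higher and 4 lower with a median of -0.04. The higher ones were the methyltransferases Dnmt3a (0.25) and Dnmt3b (0.14), Trim28 (0.21) and Dppa3 (0.29), and the lower ones were Dnmt3l (-0.19), Setdb1 (-0.18), Tet2 and Tet3. TET enzymes oxidise 5-methylcytosine, and Tet1 did not pass (-0.13). Tet2 had 221 and 226 CPM against 152 and 133 (log2 fold change -0.65, SE 0.06), and Tet3 had 22.8 and 23.0 against 12.3 and 11.9 (-0.92, SE 0.07). The groups were separate for Tet2 and for Tet3.

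The largest falls did not form a family. A3galt2, a glycosyltransferase gene, went from 5.09 and 4.46 CPM in treated IPO13+/+ to 0.124 and 0.0808 in treated IPO13-/- cells (log2 fold change -5.51, SE 0.22). Vsx1, a homeobox gene, had 94 and 109 counts against 2 and 4, a ratio of 31.0 with a counting interval of 14.0 to 85.6. Ipp, which encodes a Kelch-repeat protein, was the most abundant of them and fell from 157 and 158 CPM to 6.46 and 7.18 (-4.53, SE 0.06, FDR = 3.7e-28). Ube2l6, the conjugating enzyme for the ubiquitin-like protein ISG15, was at 20.5 and 20.9 against 2.49 and 2.41 CPM (-3.08). The other 6 were Obox6, Caps2, Casq2, Lypd2, Slc23a1 and Trim62, with log2 fold changes between -3.50 and -2.38. Like the rises, these 10 were taken only among genes whose groups did not overlap.

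**Figure D3:**
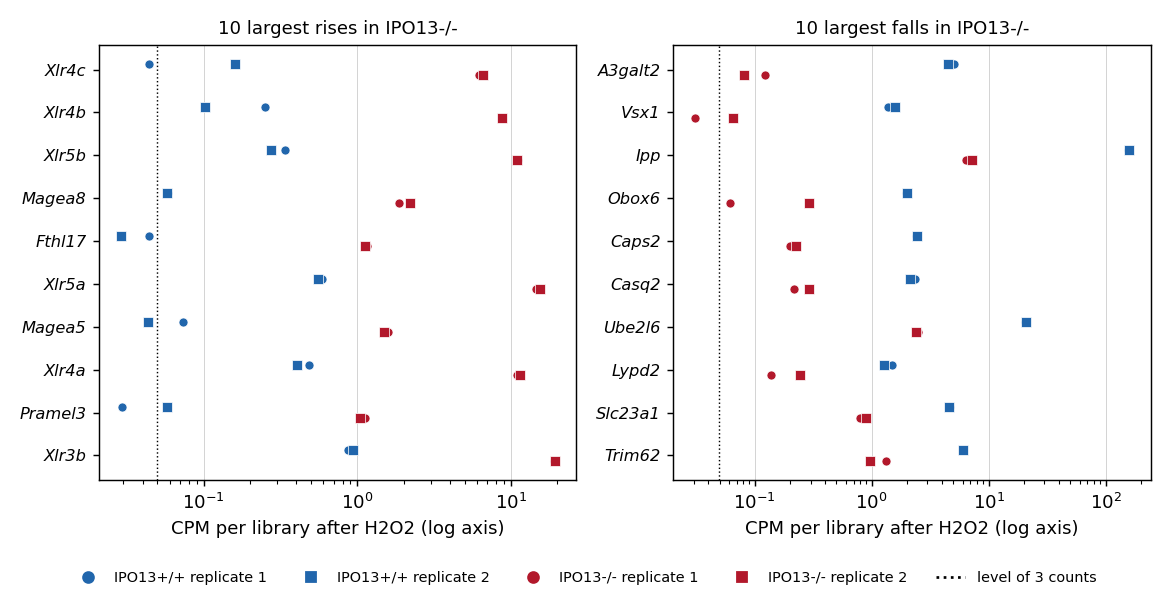
CPM per library after H2O2 (log axis) of the named rises (left, 10 genes) and falls (right, 10 genes), IPO13+/+ in blue and IPO13-/- in red, replicate 1 as a circle and replicate 2 as a square, with a dotted line at the level of 3 counts (the highest of the libraries). All 20 genes were chosen among those in which both libraries of 1 genotype lay beyond both of the other. In Xlr4c, Fthl17, Magea5, Pramel3 and Vsx1 at least 1 library of the low group was below that line.

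Among abundant genes the shifts in absolute level were of another kind. Vim, the intermediate filament vimentin, rose most in CPM among called genes, from 66.5 and 65.6 to 188 and 184 (log2 fold change 1.495, SE 0.04, FDR = 1.6e-20). Cpne1, a calcium-dependent phospholipid-binding protein, went from 74.6 and 75.5 to 156.5 and 153.9 CPM (1.05), F2rl1, the protease-activated receptor PAR2, from 68.1 and 65.9 to 138 and 140.4 (1.06), and Usp26, an X-linked deubiquitinase, from 5.56 and 5.54 to 45.1 and 41.6 (2.97). B4galt6, a lactosylceramide synthase gene, fell by 2.15 on the log2 scale, from 230 and 233 CPM to 54.1 and 49.9. Nynrin fell by 1.79. In each of these 6 genes the replicates of a genotype were close. They too were taken only among called genes whose groups did not overlap. Lefty1 and Lefty2, secreted inhibitors of NODAL signalling that lie next to each other on chromosome 1, fell together. Lefty1 lay at 77.4 and 77.6 CPM against 19.9 and 18.9 (-1.998, SE 0.07), and Lefty2 at 114.9 and 113.9 against 31.9 and 32.6 (-1.83, SE 0.05). Both libraries of IPO13-/- cells were low in both genes. Other genes of the NODAL and BMP list moved in both directions, with 1 of 25 called higher (Nog, an extracellular BMP antagonist near the detection limit), 3 lower and a median of -0.13. The ligand Bmp4 was higher, at 30.0 and 29.8 against 53.3 and 52.4 CPM (0.82). The Id genes, dominant-negative helix-loop-helix targets of BMP signalling, split, Id1 (0.24) and Id3 (0.71) being higher and Id2 (-0.26) and Id4 (-0.85) lower, and Id1 and Id2 had lower values without treatment (-0.47 and -0.99). Id1 lies on chromosome 2, where the median gene was 0.29 higher.

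The immediate early genes of the FOS and JUN family were on balance lower in treated IPO13-/- cells. Fos, a subunit of the AP-1 factor, had 37.1 and 38.2 CPM in treated IPO13+/+ and 17.4 and 17.3 in treated IPO13-/- cells, without overlap (log2 fold change -1.12, SE 0.06, FDR = 9.6e-14). Fosb was at 9.01 and 8.07 against 4.40 and 5.03 CPM (-0.86), and Jun at 45.7 and 45.3 against 36.7 and 35.6 (-0.33). In untreated cells Jun and Fosb had log2 fold changes of 0.07 and 0.28 that did not pass the test, and the differences between the contrasts were -0.40 (FDR = 0.0023) and -1.14 (FDR = 1.6e-04). That of Fos was -0.62 (FDR = 2.1e-04). All 3 lost significance without replicate 1 of untreated IPO13-/- cells, with FDRs of 0.0774 for Fos, 0.0832 for Fosb and 0.121 for Jun. Zfp36, which promotes decay of inflammatory mRNAs, was lower in treated (-0.88) as in untreated cells (-0.81). Of 25 listed genes, Fos was the only one called, and the median was -0.15. By FDR alone 5 were higher and 13 lower, against 19.1% and 17.5% of all genes. Of the 25, 24 had a mean of at least 1 CPM, unlike many of the genes behind these shares.

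Of 24 p53 targets tested, none was called in either direction at the fold limit. By FDR alone 14 were lower and 4 higher, against 17.5% and 19.1% of all genes, 6 did not pass, and the median was -0.18. All 24 had a mean of at least 1 CPM, unlike many of the genes behind these shares. The 4 higher targets were Sesn1 (0.38), Tnfrsf10b (0.21), Plk3 (0.17) and Sesn2 (0.14). Cdkn1a, the cell cycle inhibitor p21, stood at 79.6 and 78.6 CPM in treated IPO13+/+ and at 52.1 and 52.0 in treated IPO13-/- cells (log2 fold change -0.60, SE 0.05). Mdm2, the ubiquitin ligase that limits p53, was at 330 and 338 against 302.4 and 285 CPM (-0.19, SE 0.05), and Plk2, a kinase of the centrosome cycle, at 129 and 131 against 93.4 and 89.8 (-0.51). In all 3 the groups were separate. For 10 of the 24 the treated difference was more positive than the untreated one by the test and for none more negative. Over all genes these shares were 2.01% and 0.705%, a split that reversed under another scaling, as given below. For Mdm2 the difference passed in 7 of 15 alternatives. The untreated median of the list was -0.33. Mean levels of Cdkn1a, for example, were 45.1 and 21.1 CPM without treatment, a log2 fold change of -1.10.

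Antioxidant genes under NRF2 were mixed. Of 28, none was called, and the median was -0.07. By FDR alone 5 were higher and 10 lower, against 19.1% and 17.5% of all genes. Hmox1, the inducible haem oxygenase, reached 331 and 327 CPM in treated IPO13+/+ and 250.3 and 248 in treated IPO13-/- cells (log2 fold change -0.40, SE 0.04), the untreated difference being -0.86. Catalase (Cat) and sulfiredoxin (Srxn1) were higher in IPO13-/- cells, by 0.45 and 0.33, and both lie on chromosome 2, where the median gene was 0.29 higher. Of the 25 heat shock chaperones, 17 were lower and 2 higher by FDR alone, against 17.5% and 19.1% of all genes. Their median was -0.15. All 25 had a mean of at least 1 CPM, unlike many of the genes behind these shares. Hspa1a, an inducible HSP70 gene, was called lower, at 4.70 and 4.37 against 1.96 and 1.75 CPM (-1.29, SE 0.11). Its close copy Hspa1b was at 8.76 and 9.10 against 4.40 and 4.61 CPM (-0.99), with transcripts 88.8% identical. The co-chaperone Bag3 (-0.85), the small heat shock protein Cryab (-0.90) and the HSP110 gene Hsph1 (-0.70) were lower too. Hspa4l, a testis-enriched HSP110 relative, was the exception called higher (1.03).

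Genes of the integrated stress response and the unfolded protein response had medians of -0.07 and -0.01. Over all genes 19.1% were higher and 17.5% lower by FDR alone. Beside this, 4 were higher and 10 lower of 25 in the first list, and 4 higher and 6 lower of 24 in the second. Cth, which makes cysteine from cystathionine, was the only one called, at 132 CPM in both treated IPO13+/+ libraries against 55.2 and 56.0 in IPO13-/- libraries (log2 fold change -1.25, SE 0.05). Chac1, a glutathione-degrading enzyme, was higher, at 6.83 and 6.24 against 9.22 and 9.31 CPM (0.50), and Xbp1, the transcription factor spliced by IRE1, was lower (-0.62). Members of the BCL2 and caspase list were not called. By FDR alone 4 were higher and 6 lower of 24, among them Cycs, cytochrome c, at 69.9 and 73.8 against 86.9 and 102.7 CPM (0.40), and the caspase inhibitor Xiap at 111 and 117 against 91.1 and 89.4 (-0.34).

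The metallothioneins Mt1 and Mt2, small cysteine-rich proteins that bind zinc, lay higher, while Mt3, at about 2 CPM, did not pass (0.15). Mt1 had 546 and 531 CPM in treated IPO13+/+ and 748 and 801 in treated IPO13-/- cells (log2 fold change 0.52, SE 0.04), Mt2 had 705 and 697 against 918 and 968 (0.43), and the zinc exporter Slc30a1, a target of the same metal-sensing factor, 34.4 and 34.0 against 58.5 and 57.4 (0.76, SE 0.05). The groups did not overlap in any of them. Of the 11 genes of the list 4 were higher by FDR alone, none was lower and 7 did not pass. Of 24 cholesterol synthesis genes, 14 were higher and 1 lower by FDR alone, against 19.1% and 17.5% of all genes, with a median of 0.19 in treated and -0.02 in untreated cells. All 24 had a mean of at least 1 CPM, unlike many of the genes behind these shares. Dhcr7, the last enzyme of the pathway, was at 42.1 and 41.3 against 69.5 and 70.8 CPM (0.75). Insig1, which retains the SREBP factors in the endoplasmic reticulum, was at 142 and 145 against 214.5 and 197 (0.52), with 0.08 in untreated cells and a difference between the contrasts of 0.44 (FDR = 5.9e-05).

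**Figure D4:**
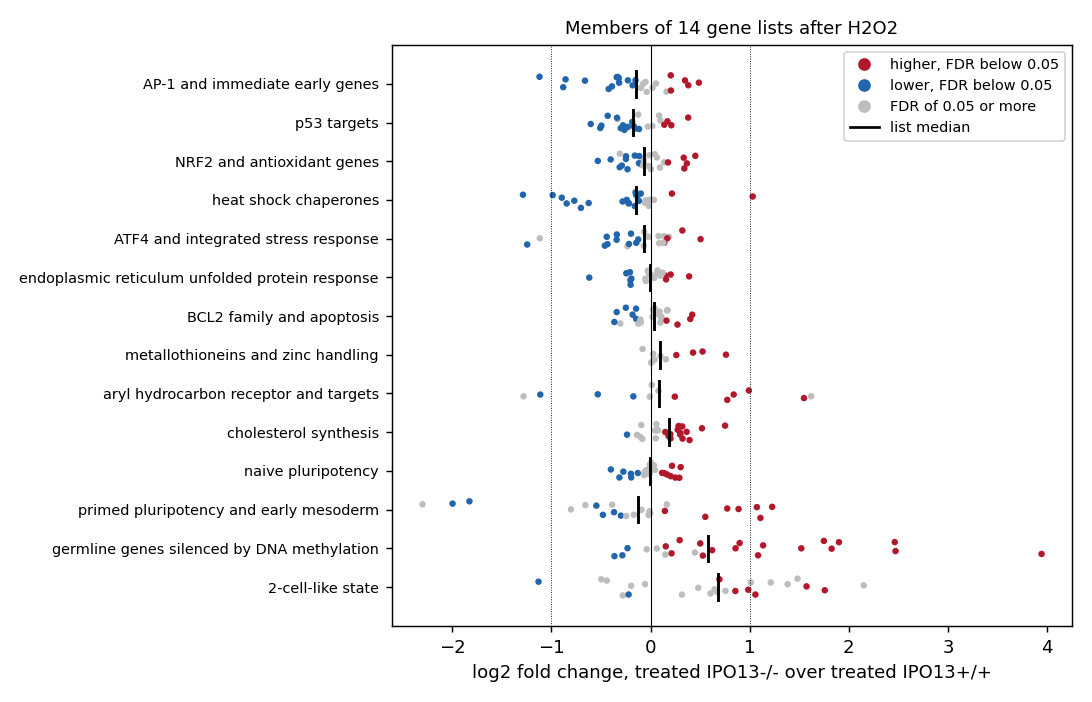
Log2 fold change of treated IPO13-/- over treated IPO13+/+ cells for each tested member (dots) of 14 gene lists, red and blue where the FDR was below 0.05 and grey otherwise, with the list median as a black bar and dotted lines at the 2-fold limits. Heat shock and p53 lists lie mostly to the left (medians of -0.15 and -0.18), and the germline and cholesterol lists to the right (0.57 and 0.19).

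Genes whose genotype difference changed with treatment were found by the test of the difference between the 2 contrasts. It passed for 527 genes, 2.71% of those tested, of which 390 (2.01%) were more positive and 137 (0.705%) more negative in treated cells. This split depends on scaling, since with library totals in place of TMM factors it was 209 against 469, and leaving out single libraries moved it from 62 against 11 to 794 against 363. With the replicate number as a block it was 885 against 406. In 75 genes both contrasts passed the FDR with opposite signs, 61 of them higher in IPO13-/- cells after treatment and lower before it. Besides Cyp1a1 and Cyp1b1 these included the following 3, chosen after their values were seen. Bhlhe40, a stress- and clock-linked repressor, was at 63.8 and 63.1 against 73.3 and 74.3 CPM (log2 fold change 0.22, and -0.55 untreated). Nab2, a corepressor of EGR factors, was at 54.3 and 52.8 against 70.0 and 66.6 CPM (0.35, and -0.43 untreated). Cxcl16, a chemokine, was at 16.7 and 15.8 against 23.4 and 22.7 CPM (0.50, and -0.37 untreated). The treated groups were separate in each.

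Some genes with a called untreated difference were close to level after treatment. Bdkrb2, the bradykinin B2 receptor, lay at 1.94 and 2.17 CPM in treated IPO13+/+ and 2.46 and 2.28 in treated IPO13-/- cells (log2 fold change 0.20, SE 0.12, FDR = 0.21), against -1.45 without treatment, a difference of 1.66 between the contrasts (FDR = 4.9e-05). Tnfrsf19, a receptor of the TNF family, had 0.17 against 1.07 (difference -0.89), and Mxra8, a cell adhesion protein, had 0.27 against 1.10 (difference -0.83), its treated groups overlapping. The difference for Mxra8 had an FDR of 0.0437 and stayed below 0.05 in 5 of 15 alternatives. Among genes at 20 CPM or more in all 4 treated libraries, the 5 called in untreated cells with the smallest treated difference were Plaur (the urokinase receptor), Trp73 (a p53 relative), Phlda1, Cdkn1a and Cldn4 (a tight junction claudin). All 5 were lower in untreated IPO13-/- cells (log2 fold changes between -1.12 and -1.01) and still lower after treatment (-0.31 for Plaur to -0.62 for Cldn4). Plaur, for example, lay at 88.9 and 87.3 against 69.0 and 73.2 CPM. In the other direction, Zfp174, a zinc finger gene, was called lower only in treated cells, at 1.19 and 1.03 against 0.371 and 0.453 CPM (-1.43, and 0.12 untreated), and that difference of -1.55 had an FDR of 0.0774 without replicate 1 of untreated IPO13-/- cells.

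None of 25 naive pluripotency genes was called, but 8 were higher and 6 lower by FDR alone, with differences between -0.40 and 0.30 and a median of -0.01. Nanog was at 407 and 416 against 404 and 422 CPM (log2 fold change 0.01, SE 0.04), Sox2 at 387 and 390 against 372 and 374 (-0.06, SE 0.04) and Pou5f1 had -0.01 (SE 0.05). These 3 did not pass the test. Tcl1, a coactivator of AKT, was lower (-0.40) and Tbx3, a T-box factor, higher (0.30). In the primed pluripotency and early mesoderm list 3 of 24 were called higher and 2 lower. The higher ones were Lef1, the WNT-responsive factor, at 3.40 and 3.28 against 8.20 and 7.42 CPM (1.23, SE 0.10), Fgf5, at 0.617 and 0.695 against 1.44 and 1.33 CPM (1.07), and T, brachyury, below 1 CPM throughout (1.11, SE 0.39). The call on T, which also counts among the WNT targets, was lost in 7 alternatives, among them DESeq2, limma-voom and leaving out either treated IPO13+/+ library. The lower ones were Lefty1 and Lefty2. Signalling lists around pluripotency moved in both directions. Of 25 genes of FGF and ERK feedback 1 was called higher and 1 lower, and the median was -0.13. By FDR alone 7 were higher and 13 lower, against 19.1% and 17.5% of all genes. All 25 had a mean of at least 1 CPM, unlike many of the genes behind these shares. Etv5, a factor downstream of FGF signalling, was at 221 and 222 against 347 and 352 CPM (0.66), the ERK phosphatase Dusp4 at 29.7 and 30.5 against 50.2 and 46.6 (0.68, and -0.06 untreated) and Myc at 55.6 and 56.1 against 36.8 and 33.7 (-0.66). The first 2 were thus higher in IPO13-/- cells and Myc lower. Of 24 WNT targets 2 were called higher, Lef1 and T, with a median of 0.15, while glycolysis and hypoxia genes had none of 25 called and a median of -0.01.

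Markers of neighbouring lineages moved in both directions. Of 24 trophectoderm genes 2 were called higher (Esx1 and Ly6a) and 1 lower (Plac1), and the median was -0.37. By FDR alone 7 were higher and 9 lower, against 19.1% and 17.5% of all genes. The transcription factors Gata3 (0.95) and Tfap2c (0.73) were among the higher, while the keratins Krt8 (37.2 and 35.2 against 17.5 and 19.2 CPM, log2 fold change -0.98) and Krt18 (-0.85) were lower. Of 25 primitive endoderm genes 1 was called higher and 2 lower with a median of -0.22. Fibroblast markers, read as a check for feeder cells, had 3 called higher and 2 lower, 7 higher and 4 lower by FDR alone, and a median of 0.34 after treatment and 0.81 without it. The higher calls were Vim, Col5a1 and Col6a1 (the last at a mean of 0.262 against 0.556 CPM), while Col1a1, a defining collagen, was lower at 4.76 and 4.33 against 1.39 and 2.04 CPM (-1.41). Neural markers had 2 called higher (Nkx2-2 and Pax6) and 1 lower (Sox1). Most of the 24 listed 2-cell-like genes were near the detection limit, and 3 were called higher (Gm5662, Arg2 and Usp17la) and 1 lower (Tdpoz1), the highest mean among them being 1.33 CPM for Gm5662 in treated IPO13-/- cells. Of imprinted genes, H19 was called higher at 15.8 and 16.3 against 36.4 and 36.2 CPM (1.18, SE 0.07). Its neighbour Igf2 was lower at 17.9 and 19.1 against 11.9 and 11.1 (-0.69), Igf2r was higher (0.92) and Meg3 lower (-0.93). In bulk samples fewer cells of a type and less RNA per cell cannot be told apart.

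Genotype differences were uneven along the genome. The 918 genes of chromosome 2 with a mean of at least 1 CPM had a median log2 fold change of 0.29 after treatment (quartiles 0.15 and 0.43) and of 0.27 without it, against medians between -0.08 and 0.00 on the other autosomes. On this chromosome 74.6% of genes were higher by FDR, against 22.5% elsewhere. The shift was spread over its whole length, since in all 18 bins of 10 Mb that held at least 20 genes the median was above 0, from 0.19 to 0.37. Few genes of this chromosome passed the fold limit, 23 being called higher and 7 lower. The share called higher was 2.51%, against 1.45% of all 12228 genes at this level, of which 1.26% were called lower. In either direction it was 3.27% against 2.71%. Higher genes named here that lie on chromosome 2 include Vim, Cpne1, Col5a1, Nkx2-2, Pax6, Id1, Chac1, Cat and Srxn1. The lower genes Vsx1, Ube2l6 and Nfatc2 lie there as well. The differences of these genes stand beside this shift. Its part in them was not tested. The X chromosome had a median of 0.12 over 452 genes and 9.73% of them called, 38 higher and 6 lower. The non-coding RNAs of the X inactivation centre were lower, Xist at 16.0 and 16.5 against 6.67 and 6.19 CPM (log2 fold change -1.33, SE 0.08), Ftx with -1.07 and Tsix, short of the fold limit, with -0.95. Without strand, reads of Xist and its antisense partner Tsix cannot be told apart.

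**Figure D5:**
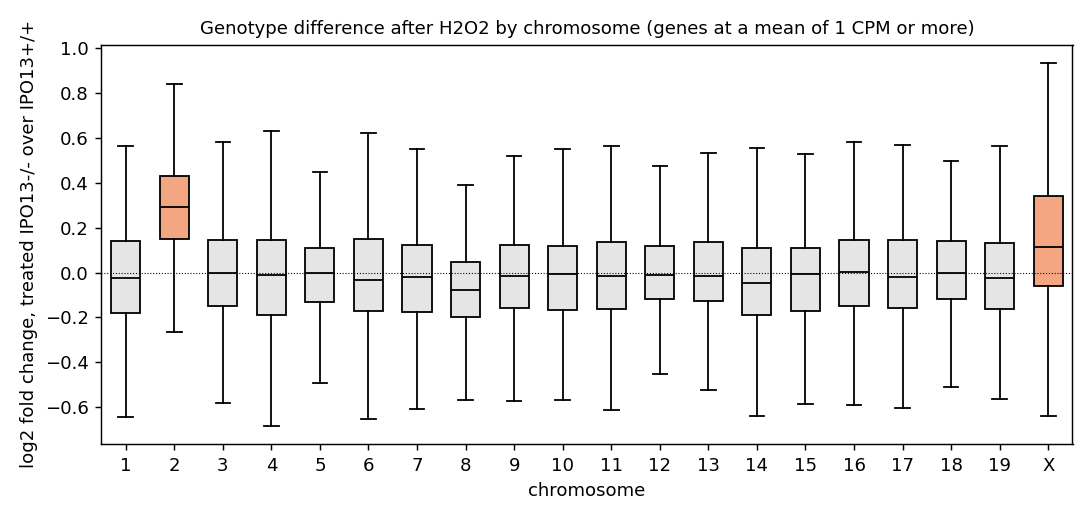
Log2 fold change of treated IPO13-/- over treated IPO13+/+ cells by chromosome for genes at a mean of 1 CPM or more, with the median as a line, the quartiles as a box and whiskers to the last gene within 1.5 box lengths. Chromosome 2 (median 0.29) and the X (0.12), drawn in orange, lie above 0, and the other chromosomes are centred between -0.08 and 0.00.

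Around the targeted locus most genes were level. Of 57 genes at 1 CPM or more within 2 Mb on either side of Ipo13 (the window was chosen after the values were seen), 3 were called lower, Ipo13 itself among them, and 1 higher, with a median of -0.04. Artn, a neurotrophic ligand whose gene lies 11 kb away, was at 1.93 and 2.21 against 0.803 and 0.808 CPM (log2 fold change -1.36, SE 0.15). St3gal3, a sialyltransferase 17 kb away, was at 14.02 and 14.2 against 7.69 and 8.37 CPM (-0.81). Ipp, the third gene called lower, lay 1356 kb away. Dmbx1, a homeobox gene 1955 kb away, was higher, at 0.456 and 0.579 against 3.65 and 3.51 CPM (2.78). The nearest gene, Dph2, 2 kb away, had a log2 fold change of 0.00 (SE 0.05).

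A further list held genes chosen for PCR, together with the siRNA targets Klf4, Sp1, Nfatc2 and Rreb1. Of its 14 members, Lef1 was called higher and Stox1 lower, beside 4.56% of all genes called. Stox1 was at 0.456 and 0.434 against 0.247 and 0.162 CPM (log2 fold change -1.11, SE 0.34, FDR = 0.012), and lost significance without replicate 1 of treated IPO13+/+ or replicate 2 of treated IPO13-/- cells. By FDR alone Snai3 was also higher (6.56 and 7.22 against 9.30 and 11.4 CPM, 0.59), and Fosb (-0.86), Nfatc2 (-0.18), Cyp2s1 (-0.17) and Ppard (-0.16) were lower. Klf4 (381 and 383 against 395 and 394 CPM, 0.04, SE 0.04), Sp1 (-0.06, SE 0.05), Rreb1 (-0.10), Dok1 (0.01), Neu3 (-0.08) and Rasd1 (-0.36, SE 0.16) did not pass. Il5 had no more than 1 count in any treated library. Promoters of called genes held GGGCGG and GCGTG, searched on either strand, less often than those of all genes tested, as a description. GGGCGG, a core bound by SP factors, was in 43.2% of the 359 promoters of genes called higher and 37.7% of the 247 of genes called lower, against 55.3% of all, and GGGTGTG, a KLF-type core, in 12.3%, 8.50% and 8.72%. GCGTG was in 37.6% and 34.0% against 45.0%. Among tested genes at a mean of at least 1 CPM, GGGCGG was in 67.0% and GCGTG in 53.4%. Most called genes were below that level, so the lower shares cannot be told apart from a difference in level. The cyclic AMP response element TGACGTCA was in 2.51% and 1.21% against 2.76%, and the AP-1 element TGANTCA in 7.24% and 7.69% against 6.08%. These promoters also differ in CG content, as given above for called genes, and the shares were not tested.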

How the data were processed

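Gene counts of 8 RNA-seq libraries from IPO13+/+ and IPO13-/- mESCs were used. The authors prepared mRNA libraries, and the submitters' processing notes name bcl2fastq, STAR 2.3.1, HTSeq, limma and mm10; the gene annotation and strand setting are not given in the sources used here. The authors deposited whole-number counts for 23420 symbols, and CPM (count over library total), which were only checked against the counts. In R 4.3.3, the 19424 genes with at least 1 count were fitted with edgeR 4.0.16 (quasi-likelihood, TMM factors, 1 coefficient per group, all 8 libraries). FDR is Benjamini-Hochberg over all tested genes. Genes were called at FDR below 0.05 and a log2 fold change of at least 1, and at FDR alone for the difference between the treated and untreated genotype contrasts. CPM in the text carry TMM factors, and SE is the absolute log2 fold change over the square root of F. Totals were 60397877 to 73789079 counts per library.

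The common dispersion of the fit corresponded to a coefficient of variation of 3.36% between replicates. Limma-voom (3.58.1), DESeq2 (1.42.0), other scalings, filters, a replicate block and leaving out each library were tried. Members and gene lists were chosen with earlier results of these data known. Named genes are Ipo13; the 10 largest rises and falls among called genes with a gene name, at least 1 CPM in both libraries of the higher group and no overlap; the 5 largest differences in CPM each way; the genes with the largest difference between contrasts called in 1 of them (at most 5 each); up to 4 called members per list; the PCR and siRNA genes; and the 5 closest to level among genes at 20 CPM called when untreated. Other list members were named after their values were seen. Positions are from GENCODE M21, promoters from RefSeq on GRCm38.p6 matched by symbol. The deposited tables hold 27 symbols altered to dates, which are not named. Gene lengths were not used, so levels are compared between libraries and not between genes.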

Additional observations from a re-analysis of the deposited data

Results flagged for a closer look

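The genotype difference of treated cells differed from that of untreated cells (FDR below 0.05, edgeR quasi-likelihood test of the difference between the contrasts) for 40 of the 145 named genes. Over all genes tested 2.71% passed. Some of the 40 were named because of this difference and others after their values were seen, so the count reflects that choice. The values below are those differences on the log2 scale.

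Genes more positive in treated cells were Cyp1a1 (3.92), Cyp1b1 (2.05), Bdkrb2 (1.66), Ahrr (1.53), Dmbx1 (0.96), Cxcl16 (0.88), Plaur (0.81), Nab2 (0.78), Bhlhe40 (0.77), Dusp4 (0.75), Id2 (0.73), Id1 (0.71), Maff (0.58), Trp73 (0.55), Phlda1 (0.53), Cdkn1a (0.50), Bmp4 (0.47), Hmox1 (0.45), Insig1 (0.44), Plk2 (0.40), Cldn4 (0.40), Tiparp (0.39), Tbx3 (0.36), Vim (0.33), F2rl1 (0.33), Mt1 (0.29), Mdm2 (0.28), Tcl1 (0.24) and Mt2 (0.23). Genes more negative in treated cells were Zfp174 (-1.55), Fosb (-1.14), Chac1 (-0.90), Tnfrsf19 (-0.89), Smad6 (-0.86), Mxra8 (-0.83), Hspa1b (-0.80), Fos (-0.62), Prdm14 (-0.49), Tet3 (-0.47) and Jun (-0.40).

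The difference kept an FDR below 0.05 in every one of the alternatives that gave it a value for 23 of these 40 genes, among them Cyp1a1 (3.80 to 4.02, largest FDR 2.4e-07), Cyp1b1 (1.86 to 2.22, largest FDR 6.7e-04) and Ahrr (1.37 to 1.68, largest FDR 0.0311). For Mt2 it did so in 2 of 15, for Mxra8 and Tcl1 in 5, for Mdm2 in 7, and for Mt1 and Dmbx1 in 9. The other 11 genes lost it in 1 or 2 alternatives.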

How the results depend on the processing

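The counts of genes called higher and lower in treated IPO13-/- cells (501 and 385) stayed within 1.5 times of these values under limma-voom (643 and 469), DESeq2 (386 and 298), other scalings, filters and the treated libraries alone; without single libraries they were 440 to 513 and 332 to 396. Without the fold limit they were 3718 and 3397, and with glmTreat against a 2-fold change 153 and 95; untreated cells without the fold limit gave 3634 and 3777, and without single libraries 474 to 565 and 306 to 351. The numbers of genes with a more positive and more negative difference in treated cells (390 and 137) were the least stable. They were 213 and 42 with limma-voom, 239 and 55 with DESeq2, 209 and 469 with library totals, 242 more positive with filterByExpr, 80 more negative with at least 10 counts, and 62 to 794 and 11 to 363 without single libraries, lowest without untreated IPO13-/- replicate 1 and highest without untreated IPO13+/+ replicate 1. The cause was not tested. With the replicate number as a block they were 885 and 406. Deviations of same-numbered libraries correlated across genes in 3 of the 6 pairs of groups (untreated IPO13+/+ with treated IPO13-/- 0.614, untreated IPO13+/+ with untreated IPO13-/- 0.348, untreated with treated IPO13-/- 0.326). In the other 3 they did not (-0.085 to -0.001). Each of these 3 includes treated IPO13+/+ cells, whose replicates differed least (chi-square of 2.26 per gene against 4.58 to 15 in the other groups). The correlations therefore cannot settle whether the numbers mark a shared source of spread. The labels name none, and the main fit held no block. The block moved no other count of calls by over 1.5 times.

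The chromosome 2 median was 0.30 with genes of at least 10 CPM and 0.29 to 0.30 without single treated libraries, that of the X 0.08 and 0.10 to 0.12, and that of chromosome 8 -0.08 to -0.07. At 0.5 CPM, 8 genes were present in IPO13-/- and 2 in IPO13+/+ cells alone. Of 145 named genes, 123 kept sign and side of the threshold under all alternatives that gave them a value. Sign changed only where the treated difference had not passed: Ahr (0.00 with DESeq2 and relative log expression factors), Dok1 and Nanog (-0.01 with both), Tiparp (0.00 with library totals) and, over single libraries left out, Ahr (-0.12 to 0.13), Dok1 (-0.02 to 0.03), Nanog (-0.03 to 0.04), Tiparp (-0.02 to 0.01), Maff (0.00 to 0.05), Neu3 (-0.22 to 0.05), Il5 (-3.17 to 0.13) and Pou5f1 (-0.07 to 0.04). Significance was lost in 7 alternatives each for Afp, Cyp2s1, Nfatc2 and T, in 4 for Twist2 and 3 for Stox1, and in 1 or 2 for 8 others. Of 432 list medians under alternatives, 54 moved by more than the spread over library pairs. With 2 libraries per group, genes at a few counts carry wide errors.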
